A study of Mus musculus with 24 samples.

Results

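Interferon-stimulated genes and guanylate-binding proteins were followed through the cochlea of mice that differed in noise exposure, time of day and adrenal surgery. The set holds 47 genes, taken by symbol from a list, out of 23420 genes counted. All 47 had an entry and passed the filter on low counts, as did 16607 genes in all. RNA came from whole cochleae of CBA/Sca mice aged 12 weeks, with 24 libraries in 8 groups of 3. The groups crossed noise with sham exposure, night with day, and adrenalectomy (ADX), which takes away the main source of corticosterone, with a sham operation. They were night noise ADX, night noise sham-operated, night sham exposure ADX, night sham exposure sham-operated, day noise ADX, day noise sham-operated, day sham exposure ADX and day sham exposure sham-operated. Noise of 6 to 12 kHz at 100 dB SPL lasted 1 h and began at ZT3 (day) or ZT15 (night), hours of the light cycle, and the design text puts collection 2 h after it. The sample labels instead give ZT11 and ZT23, so the hour of collection is uncertain. The labels do not say whether the libraries of a group came from separate animals, and p-values then measure only the spread between these libraries. The cochlea was collected whole, so each library mixes sensory epithelium, stria, nerve, bone and blood cells, and fewer cells of a type cannot be told apart from less RNA per cell.

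Interferons are secreted proteins that cells release on sensing viral or misplaced nucleic acid. Type I interferons act through a receptor pair, the kinases Jak1 and Tyk2, and a complex that holds Stat2 and Irf9 and binds interferon-stimulated response elements (ISREs) in promoters. Interferon gamma acts through gamma-activated sites (GAS). The induced proteins sense RNA and DNA, degrade or sequester viral RNA, trim peptides for antigen presentation, and, as guanylate-binding proteins (GBPs) and immunity-related GTPases (IRGs), attack the vacuoles of intracellular microbes. Glucocorticoids are known to dampen interferon signalling in immune cells. Low activity of the pathway in tissue free of infection is usual.

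Promoters are shown for 6 members because they carry the letters of the response element that gives the set its name. The ISRE core was searched as GAAANNGAAA, or TTTCNNTTTC on the other strand, in 300-base windows of the RefSeq promoter table (GRCm38.p6), from 250 bases before the start of transcription to 50 after. The table held 32 of the 47 members, and 15 of these 32 (46.9%) had at least 1 match, against 3.99% of the 27025 genes in the table. Each line gives the 230 bases from 250 to 21 before the start, 5′ to 3′ on the gene's own strand, with the ISRE core matches in capitals. Isg15 lies on the minus strand (window chr4:156200839-156201068), and its 3 matches overlap one another. Ifit1 (chr19:34640639-34640868), Ifit3 (chr19:34583279-34583508) and Gbp3 (chr3:142559794-142560023) lie on the plus strand with 2 matches each. Rsad2 (chr12:26456473-26456702, minus strand) and Igtp (chr11:58199306-58199535, plus strand) have 1 match each.
Isg15: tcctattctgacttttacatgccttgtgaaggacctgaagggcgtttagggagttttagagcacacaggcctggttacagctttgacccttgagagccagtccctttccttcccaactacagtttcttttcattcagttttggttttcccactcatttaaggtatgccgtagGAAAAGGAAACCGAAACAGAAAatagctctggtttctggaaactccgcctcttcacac
Ifit1: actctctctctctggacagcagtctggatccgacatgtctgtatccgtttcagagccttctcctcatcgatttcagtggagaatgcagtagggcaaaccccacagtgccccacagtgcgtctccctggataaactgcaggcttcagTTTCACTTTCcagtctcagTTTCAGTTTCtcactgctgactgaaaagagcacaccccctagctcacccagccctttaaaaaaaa
Ifit3: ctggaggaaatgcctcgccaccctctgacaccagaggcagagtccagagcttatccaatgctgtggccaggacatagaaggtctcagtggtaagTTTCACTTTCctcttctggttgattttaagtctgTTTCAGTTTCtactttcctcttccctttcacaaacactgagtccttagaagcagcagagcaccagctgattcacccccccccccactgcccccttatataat
Gbp3: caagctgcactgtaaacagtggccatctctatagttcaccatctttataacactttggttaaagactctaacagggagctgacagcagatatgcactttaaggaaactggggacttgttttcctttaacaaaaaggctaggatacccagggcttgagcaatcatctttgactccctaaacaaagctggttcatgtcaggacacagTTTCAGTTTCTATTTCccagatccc
Rsad2: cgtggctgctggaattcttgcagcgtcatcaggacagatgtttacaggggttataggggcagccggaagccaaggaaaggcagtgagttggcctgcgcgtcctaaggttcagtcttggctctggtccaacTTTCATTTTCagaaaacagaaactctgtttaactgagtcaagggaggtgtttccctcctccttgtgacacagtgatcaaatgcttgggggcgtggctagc
Igtp: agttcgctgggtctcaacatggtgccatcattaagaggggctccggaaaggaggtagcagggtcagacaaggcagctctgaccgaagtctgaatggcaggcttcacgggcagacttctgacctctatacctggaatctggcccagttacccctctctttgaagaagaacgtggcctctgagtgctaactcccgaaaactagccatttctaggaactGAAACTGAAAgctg

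Ifit1, Ifit3 and Gbp3 were higher after adrenalectomy in the average over 4 pairs of groups, whereas Isg15, Rsad2 and Igtp, with matches too, did not pass there. In that average 9 of 15 members with an ISRE core match and 7 of 17 without one were called, with median log2 changes of 0.27 and 0.24. In the night pair without noise 5 of 15 and 3 of 17 were called. Members with a GAS core match had fewer calls than those without, 2 of 8 and 14 of 24 in the average (medians 0.17 and 0.28) and 1 of 8 and 7 of 24 in the night pair. These differences between members were not tested. Of all genes tested, 1.68% were called higher in the average and 1.11% in the night pair. The GAS core, searched as TTCNNNGAA, was in 8 of the 32 members (25%), against 9.55% of all genes in the table. It overlapped an ISRE core match in Bst2. Irf1 had a GAS match, TTCCCCGAA, 90 bases before its start and no ISRE match. The core of a glucocorticoid receptor element, GNACANNNTGTNC, was in 0 of the 32 member windows and in 0.537% of all genes in the table. A match of letters is not a bound site, and these windows hold no distal elements.

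Levels per kilobase of exon spanned a wide range within the set. CPM are counts scaled to a common library size with edgeR's factors, and levels are compared between genes as CPM per kb of merged exon. Ifi27l2a, a small interferon-induced membrane protein, stood highest at 64.7 CPM per kb, the mean over the 24 libraries. Lgals3bp, a secreted glycoprotein, followed at 40.8, and Bst2, the tetherin that holds budding virus at the membrane, at 35.0 CPM per kb. Igtp, an IRG protein, had 25.7, the radical SAM enzyme Rsad2 (viperin) 22.3 and the ubiquitin-like modifier Isg15 20.9 CPM per kb. The lowest were Gbp11 at 0.909, the dynamin-like GTPases Mx1 at 0.932 and Mx2 at 0.974, Oasl1 at 1.01, the Z-nucleic acid sensor Zbp1 at 1.08 and Gbp10 at 1.09 CPM per kb. The ranges over the 24 libraries of Lgals3bp and Bst2 overlapped, as did those of Igtp, Rsad2 and Isg15, and those of the 6 lowest genes.

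**Figure D1:**
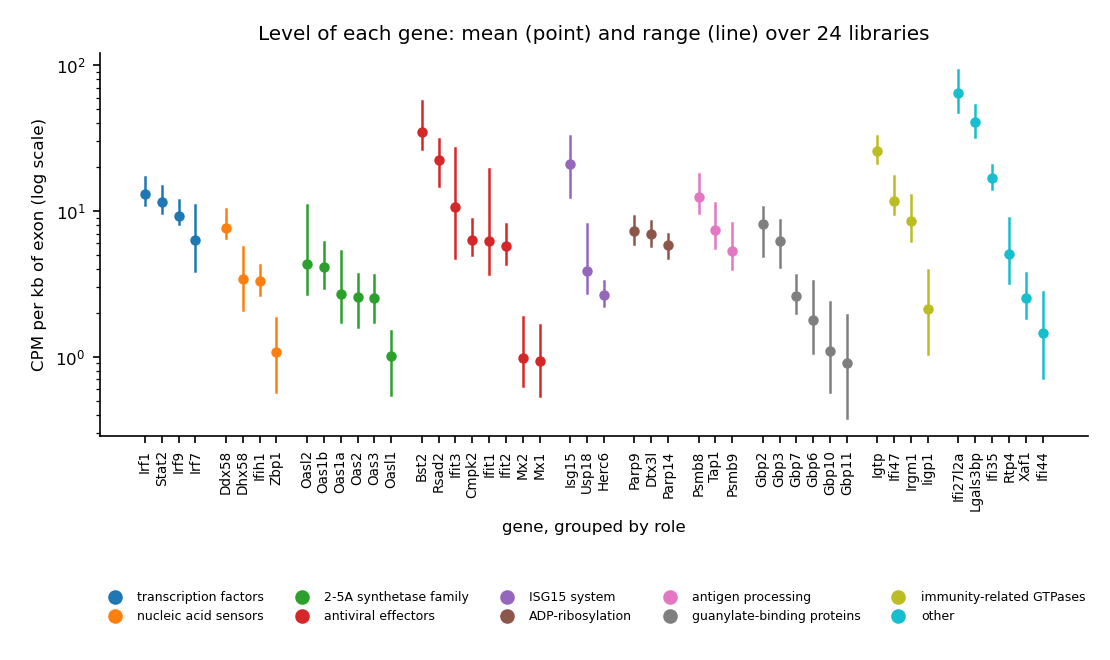
Level of each of the 47 genes in CPM per kb of exon on a log axis, with the mean over 24 libraries as a point and the lowest to highest library as a bar. Ifi27l2a, at 64.7 CPM per kb, stands above all others, and Gbp11, at 0.909, is lowest.

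Some members share sequence with near copies, so their counts are uncertain. Of all 50-base windows in the exons of Gbp10, 84.1% also occur in other genes, chiefly Gbp6, and for Gbp6 the share was 70.7%. It was 57.6% for Oas1a (with Oas1g), 51.2% for Ifit3 (with Ifit3b), 19.2% for Gbp11 and 11.6% to 12.7% for Gbp7, Herc6, Igtp and Rtp4. The share was under 1% in 26 members. Parp9 with Dtx3l and Psmb9 with Tap1 overlap on opposite strands, and the strand setting of the counting is not given in the sources used here.

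The libraries held 18894996 to 36108962 counts, of which the 47 genes took 0.102% to 0.176%. Markers of hair cells (summed CPM 253 to 385) and stria vascularis (1296 to 1800) were present in every library. Transcripts typical of pituitary or cerebellum stood out in 3 libraries, night noise ADX a, night noise sham-operated b and day sham exposure sham-operated b. The glucocorticoid-induced gene Fkbp5 served to check the surgery. It averaged 34.5 ± 8.50 CPM in night sham exposure ADX and 96.0 ± 14.8 CPM in night sham exposure sham-operated libraries, 33.8 ± 2.87 and 70.8 ± 12.6 CPM in day sham exposure ADX and sham-operated libraries, and 51.8 ± 31.6 and 105.8 ± 23.7 CPM in night noise ADX and sham-operated libraries (SD, n = 3 each). In the libraries labelled day noise ADX it was 61.7 ± 6.13 CPM, against 62.5 ± 21.7 CPM in day noise sham-operated libraries, so there the gene did not separate the surgeries. In the library labelled night noise ADX a, Fkbp5 stood at 87.6 CPM, within the range of the night noise sham-operated libraries.

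The set was summarised in each library. Each gene's log2 CPM was taken relative to its mean over the 24 libraries, and the median over the 47 genes was taken per library. This median was 0.135, 0.431 and 0.172 in the night sham exposure ADX libraries a, b and c, against -0.178, -0.302 and -0.341 in night sham exposure sham-operated a, b and c. These were the highest and the lowest of the 8 groups, with means of 0.25 ± 0.16 and -0.27 ± 0.085 (SD, n = 3 each). In night sham exposure ADX b, 47 of 47 members lay above their own mean and 29 had their highest value of all libraries. In night sham exposure sham-operated c, 0 of 47 lay above their mean and 16 had their lowest value.

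**Figure D2:**
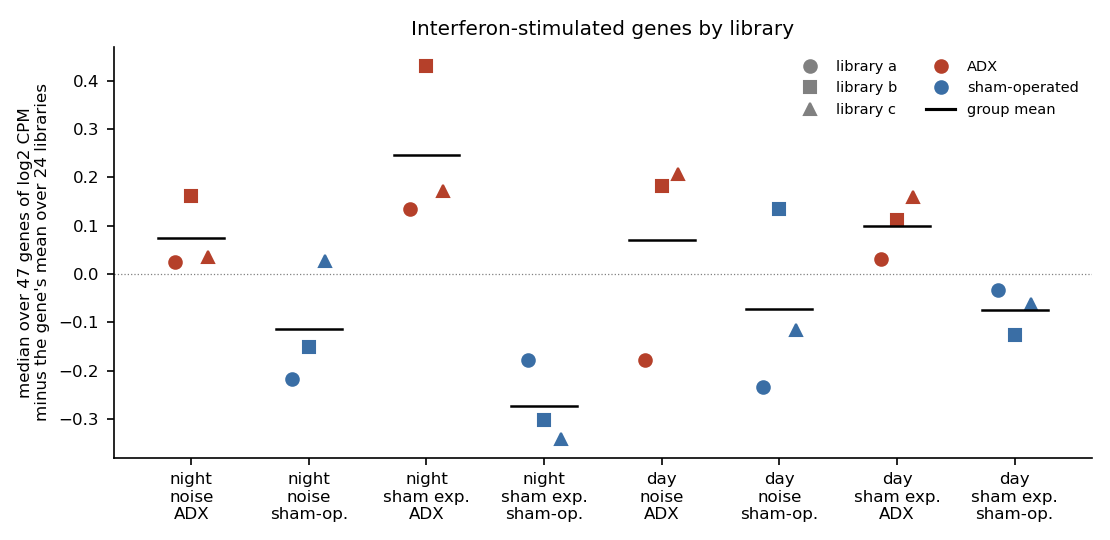
Median over the 47 genes of log2 CPM minus each gene's mean over the 24 libraries, per library (circle a, square b, triangle c), with group means as lines, ADX in red and sham-operated in blue. The 3 night sham exposure ADX libraries, at 0.135 to 0.431, lie above the 3 night sham exposure sham-operated libraries, at -0.341 to -0.178.

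The other groups lay between these. The group mean of this median was 0.074 ± 0.076 in night noise ADX and -0.11 ± 0.13 in night noise sham-operated libraries. It was 0.071 ± 0.22 in the libraries labelled day noise ADX and -0.072 ± 0.19 in day noise sham-operated libraries, whose values overlapped. In day sham exposure ADX and sham-operated libraries it was 0.10 ± 0.065 and -0.074 ± 0.048, without overlap. Among the libraries labelled day noise ADX, library a (-0.177) lay far below b and c (0.183 and 0.207).

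**Figure D3:**
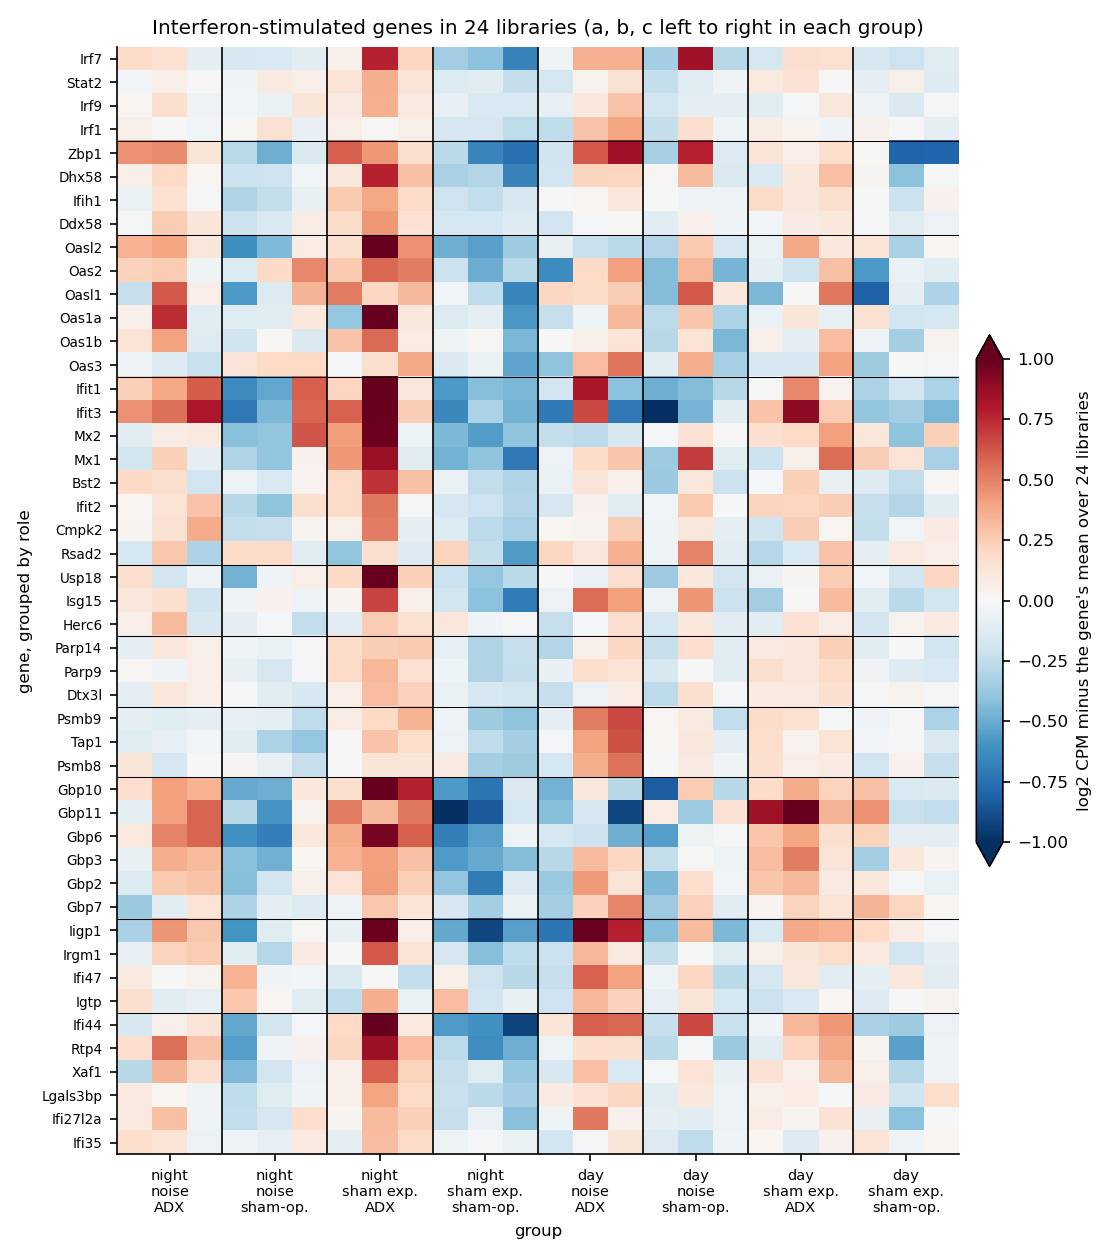
Log2 CPM of each of the 47 genes minus its mean over 24 libraries, genes as rows ordered by role, libraries as columns by group, with the colour scale ending at 1 and -1. The column of night sham exposure ADX b is above the mean in all 47 rows, and that of night sham exposure sham-operated c in 0 rows.

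Adrenalectomy at night without noise gave the set's most called members of the 12 comparisons of a pair of groups. Of the 47 genes, 17 were higher in night sham exposure ADX than in night sham exposure sham-operated cochleae at an adjusted p under 0.05 (edgeR quasi-likelihood test, Benjamini-Hochberg over all genes tested), and 0 were lower. Among all genes tested 1.58% passed in either direction and 1.11% upward. The median log2 change of the members was 0.55, against -0.001 over all genes, and 47 of 47 changes were positive. At an unadjusted p under 0.05, 39 members were higher, against 7.74% of all genes. In 40 of 47 members the 3 ADX libraries lay above all 3 sham-operated libraries, a pattern found in 11.4% of all genes. The number of calls fell when 1 library was left out. It was 14 without night sham exposure ADX a, 6 without ADX b and 10 without sham-operated a. It was 0 without ADX c, sham-operated b or sham-operated c. The share of all genes called in these fits is not given here. The median change in these 6 fits ran from 0.43 to 0.60. DESeq2 called 30 and limma voom 32 members, all of them higher. Their shares of all genes are not given here, so these counts cannot be set against the 1.58% of edgeR.

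Sensors of foreign RNA were called in 3 of 4 cases. Ifih1 (MDA5, a helicase that senses long double-stranded RNA; chr2:62595798-62646255) had 32.0, 34.9 and 30.4 CPM in night sham exposure ADX libraries a, b and c, against 23.05, 22.5 and 23.9 CPM in the sham-operated libraries. All 3 ADX libraries lay well above the sham-operated ones, by 0.49 on the log2 scale (SE 0.076, adjusted p = 0.0108). Ddx58 (RIG-I, which senses RNA with a triphosphate end; chr4:40203773-40239828) had 60.9, 72.4 and 59.2 CPM in ADX and 47.4, 47.5 and 48.8 CPM in sham-operated libraries, a log2 change of 0.42 (SE 0.085, adjusted p = 0.0203). Dhx58 (LGP2, a regulator of both; chr11:100694884-100704271) had 11.7, 18.7 and 13.4 CPM in ADX and 8.69, 8.88 and 6.85 CPM in sham-operated libraries, a change of 0.84 (SE 0.17, adjusted p = 0.0211). In both genes library ADX b was highest and the groups did not overlap. Zbp1 had 5.47, 4.87 and 4.01 CPM in ADX and 2.96, 2.24 and 2.11 CPM in sham-operated libraries, without overlap, but missed the threshold (0.97, SE 0.28, adjusted p = 0.0841).

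Among the transcription factors 1 of 4 passed. Stat2, the partner of Irf9 (chr10:128270559-128292849), had 74.8, 87.4 and 74.2 CPM in ADX and 61.8, 62.9 and 57.5 CPM in sham-operated libraries, a log2 change of 0.37 (SE 0.079, adjusted p = 0.0222) with no overlap. Irf7, which amplifies type I interferon output, had 23.99, 39.6 and 26.8 CPM in ADX and 18.2, 17.4 and 14.6 CPM in sham-operated libraries (0.84, SE 0.23, adjusted p = 0.0782). The values of Irf7 did not overlap either, and ADX b was well above the other two. Irf9 differed by 0.30 (adjusted p = 0.083) and Irf1, the early factor of the interferon gamma response, by 0.24 (adjusted p = 0.321).

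In the 2-5A synthetase family, named for enzymes whose products switch on the RNA-cutting enzyme RNase L, 1 of 6 passed. Oasl2, which joins ubiquitin-like domains to the synthetase fold (chr5:114896936-114912234), had 29.3, 69.8 and 36.1 CPM in ADX and 18.7, 17.96 and 20.4 CPM in sham-operated libraries. Its log2 change was 1.24 (SE 0.24, adjusted p = 0.019), with ADX b far above ADX a and c and no overlap between groups. The changes of Oas1a, Oas1b, Oas2, Oas3 and Oasl1 ran from 0.42 (Oas3) to 0.78 (Oas2), with adjusted p from 0.102 to 0.351. Oas1a had 3.74, 9.996 and 5.30 CPM in ADX and 4.47, 4.597 and 3.26 CPM in sham-operated libraries, so its groups overlapped.

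Of 8 antiviral effectors, Mx2 and Bst2 passed. Bst2 (chr8:71534255-71537456) had 35.5, 51.5 and 38.1 CPM in ADX and 29.7, 26.3 and 25.3 CPM in sham-operated libraries (0.62, SE 0.14, adjusted p = 0.0268). Mx2 had 4.56, 6.79 and 3.27 CPM in ADX and 2.46, 2.28 and 2.56 CPM in sham-operated libraries (1.00, SE 0.25, adjusted p = 0.0496). Neither gene's groups overlapped. The largest changes of the set belonged to Ifit1, which binds RNA with an incompletely methylated cap, and its relative Ifit3, in the cluster at chr19:34550694-34650009. Ifit1 had 17.7, 51.6 and 16.6 CPM in ADX and 10.2, 11.3 and 11.1 CPM in sham-operated libraries, 1.39 on the log2 scale (SE 0.39, adjusted p = 0.0823). Ifit3 had 25.3, 47.1 and 20.02 CPM in ADX and 10.7, 13.5 and 12.1 CPM in sham-operated libraries, 1.34 (SE 0.38, adjusted p = 0.0839). Both were higher in all 3 ADX libraries, but their spread within the ADX group was wide and neither passed. Rsad2, with 72.3, 106 and 86.9 CPM in ADX and 111, 80.6 and 64.3 CPM in sham-operated libraries, overlapped and differed by 0.05 (SE 0.20).

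Usp18, which removes Isg15 from proteins and restrains the type I receptor (chr6:121245906-121270917), was the 1 of 3 genes of the ISG15 system that passed. It had 12.1, 22.7 and 12.5 CPM in ADX and 9.08, 8.07 and 8.74 CPM in sham-operated libraries, with ADX b highest and no overlap (0.86, SE 0.20, adjusted p = 0.0293). Isg15 had 15.7, 24.7 and 16.1 CPM in ADX and 13.6, 11.6 and 9.48 CPM in sham-operated libraries (0.70, SE 0.20, adjusted p = 0.0885). Herc6, the ligase that attaches Isg15 in mice, overlapped between the groups and differed by 0.09 (adjusted p = 0.808). Of the ADP-ribosylation genes, Parp9 and Parp14 passed. Parp9 had 40.8, 44.9 and 39.3 CPM in ADX and 34.6, 28.9 and 30.2 CPM in sham-operated libraries (0.41, SE 0.076, adjusted p = 0.015). Parp14 had 61.9, 64.7 and 65.2 CPM in ADX and 51.5, 44.2 and 46.5 CPM in sham-operated libraries (0.43, SE 0.10, adjusted p = 0.0356). Neither overlapped, and ADX b did not stand apart in either gene. Dtx3l, the partner of Parp9, differed by 0.34 (adjusted p = 0.0649).

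Guanylate-binding proteins passed in 4 of 6 cases. Gbp3 had 25.4, 26.4 and 24.4 CPM in ADX and 13.4, 14.0 and 14.7 CPM in sham-operated libraries. The libraries of each group were close to one another and far from the other group (0.85, SE 0.16, adjusted p = 0.015). Gbp6, Gbp10 and Gbp11 lie side by side on chromosome 5 (chr5:105215699-105346472). Gbp6 had 13.2, 19.7 and 15.5 CPM in ADX and 6.30, 6.95 and 9.81 CPM in sham-operated libraries (1.07, SE 0.21, adjusted p = 0.0178). Gbp10 had 4.50, 9.23 and 6.90 CPM in ADX and 2.67, 2.39 and 3.63 CPM in sham-operated libraries (1.24, SE 0.27, adjusted p = 0.0245). Its exons share sequence with Gbp6, so these counts are uncertain. Gbp11 had 3.28, 2.86 and 3.31 CPM in ADX and 1.02, 1.24 and 2.00 CPM in sham-operated libraries (1.15, SE 0.29, adjusted p = 0.0451). None of the 3 overlapped between groups. Gbp2 differed by 0.66 (adjusted p = 0.0799) and Gbp7 by 0.30 (adjusted p = 0.429).

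The IRG proteins and the antigen processing genes had 0 calls of 4 and 0 of 3 in this comparison by edgeR, with 2 of each higher at an unadjusted p under 0.05. Irgm1, a regulator of the other IRG proteins, had 48.6, 74.7 and 53.6 CPM in ADX and 43.4, 36.2 and 40.9 CPM in sham-operated libraries (0.55, SE 0.15, adjusted p = 0.0665). Igtp and Ifi47 overlapped and differed by 0.00 and 0.01 (SE 0.16 each). Psmb9 and Psmb8, subunits of the immunoproteasome, differed by 0.47 and 0.27 (adjusted p = 0.107 and 0.375), and Tap1, the peptide transporter, by 0.37 (adjusted p = 0.119). Of the 6 remaining members Ifi44, Rtp4 and Lgals3bp passed. Lgals3bp had 120, 152 and 131 CPM in ADX and 98.7, 95.8 and 91.0 CPM in sham-operated libraries (0.50, SE 0.087, adjusted p = 0.0118). Rtp4, a chaperone of receptors that also binds viral RNA, had 12.2, 19.1 and 13.1 CPM in ADX and 8.76, 6.80 and 7.48 CPM in sham-operated libraries (0.94, SE 0.19, adjusted p = 0.0206). Ifi44 had 9.73, 17.1 and 9.08 CPM in ADX and 5.70, 5.52 and 4.41 CPM in sham-operated libraries (1.19, SE 0.25, adjusted p = 0.0222). All 3 were highest in ADX b, with no overlap.

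**Figure D4:**
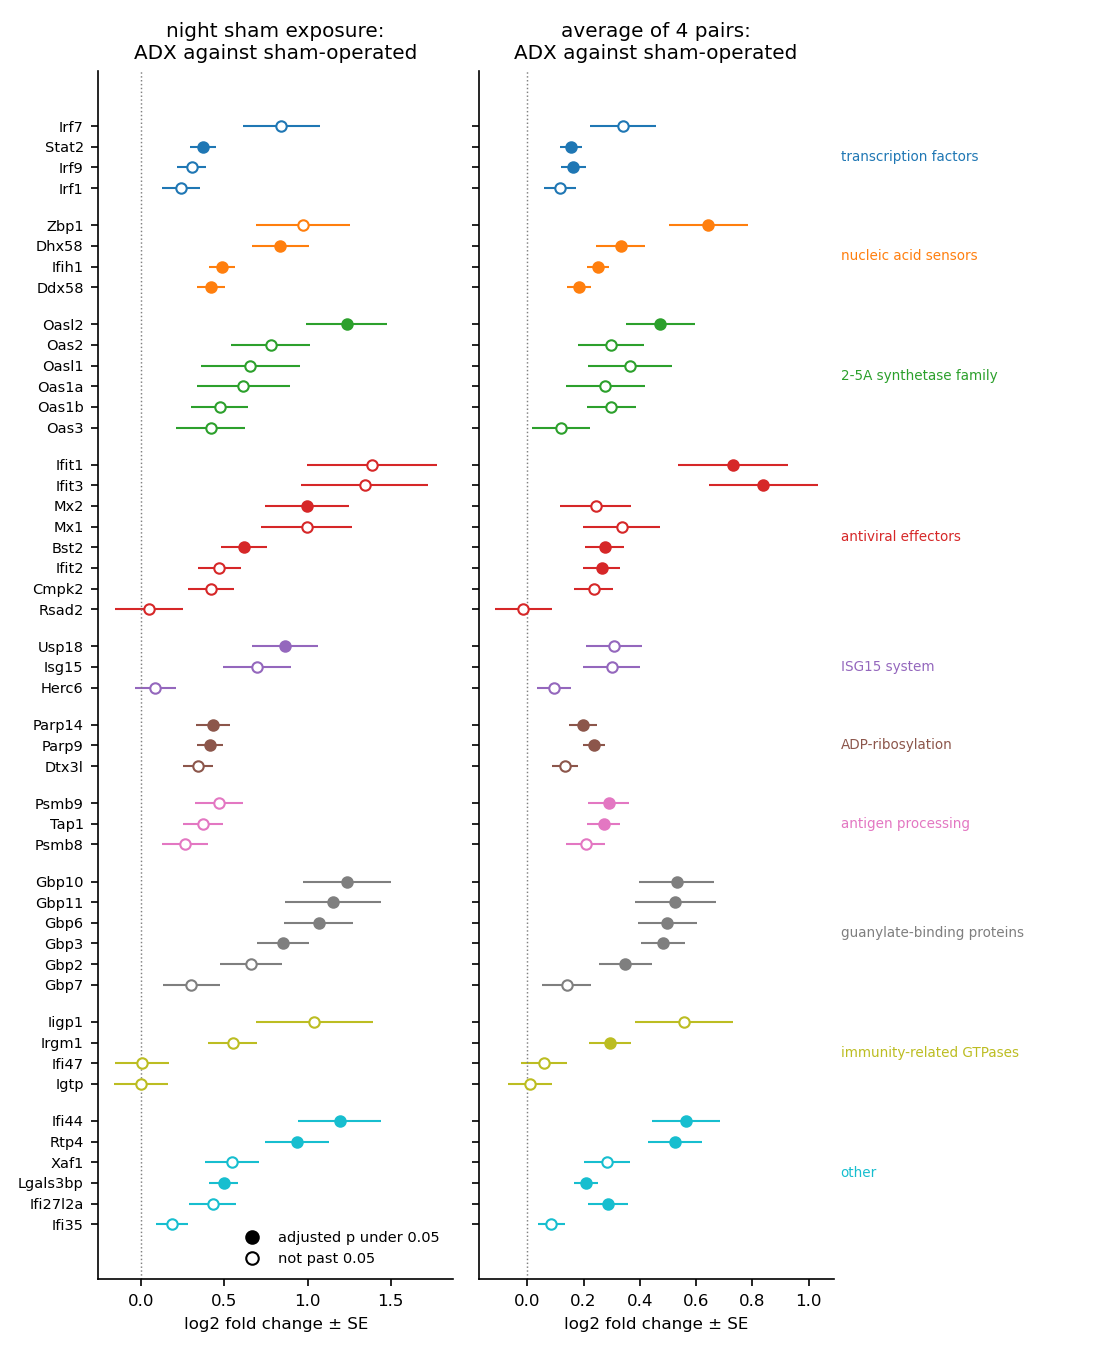
Log2 change of each of the 47 genes between ADX and sham-operated cochleae, in the night sham exposure pair (left) and as the average of 4 pairs (right), with the SE as bars, roles as colours and filled points at an adjusted p under 0.05. All 47 points lie above 0 on the left and 46 on the right, with 17 and 25 filled.

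Markers of lymphoid cells moved with the same comparison. Their summed level was 526 to 652 CPM in night sham exposure ADX and 354 to 432 CPM in night sham exposure sham-operated libraries, with none of the 8 markers at 0. The B cell genes Cd79a and Cd79b were higher (0.64 and 0.77, adjusted p = 0.0273 and 0.022), and the T cell gene Cd3e was lower (-2.28, adjusted p = 0.0209). Cd79a stood at 191, 164 and 202 CPM in ADX a, b and c, and at 129, 120 and 109 CPM in sham-operated a, b and c. Summed levels of macrophage markers were 547 to 583 CPM in ADX and 533 to 646 CPM in sham-operated libraries, those of neutrophil and marrow markers 6359 to 7451 and 7196 to 9192 CPM, and those of plasmacytoid dendritic cells 124 to 139 and 127 to 154 CPM. These 3 lists overlapped and had 0 calls by edgeR. Endothelial markers summed to 328 to 339 CPM in ADX and 300 to 318 CPM in sham-operated libraries, with 0 calls. The part of cell composition in the members' change was not tested.

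Over the 4 pairs of ADX and sham-operated groups, 25 of 47 members were higher and 0 were lower, with 3.2% of all genes called in either direction and 1.68% upward. The median log2 change was 0.28, against -0.00014 over all genes, and 46 of 47 changes were positive. The 4 pairs share no libraries, and the estimated change was positive in all 4 pairs for 31 members, in 3 pairs for 12 and in 2 pairs for 4 (Mx2, Rsad2, Igtp and Ifi47). The called genes were 4 of 4 sensors, 5 of 6 GBPs, 4 of 8 antiviral effectors, 2 of 3 ADP-ribosylation genes, 2 of 3 antigen processing genes, 2 of 4 transcription factors, 1 of 6 of the 2-5A family, 1 of 4 IRG proteins, 0 of 3 of the ISG15 system and 4 of the 6 remaining genes.

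Most members had their largest change in the night pair without noise. In 43 members the largest of the 4 changes was that of the night sham exposure pair. With that pair left out, 0 members passed in the average of the other 3 (edgeR, smallest adjusted p = 0.143), where 0.0241% of all genes did. With so few calls among all genes, this count cannot show whether the members' calls depended on the night pair. At an unadjusted p under 0.05, 21 members were higher there, against 4.23% of all genes, and 45 changes were positive with a median of 0.17, against 0.00079 over all genes. DESeq2 and voom were not run on that average. With the day noise pair left out instead, 26 members passed. The share of all genes in that average is not given here, so this count cannot be set against the 0 above.

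The called members with the smallest adjusted p in the 4-pair average were Ifih1 (0.25, SE 0.038, adjusted p = 0.00262), Gbp3 (0.48, SE 0.078, adjusted p = 0.00336), Parp9 (0.24, SE 0.038, adjusted p = 0.00336) and Rtp4 (0.53, SE 0.096, adjusted p = 0.00501). They were followed by Lgals3bp (0.21, adjusted p = 0.011), Gbp6 (0.50, adjusted p = 0.0116), Zbp1 (0.64, adjusted p = 0.0144), Ifi44 (0.56, adjusted p = 0.0144) and Tap1 (0.27, adjusted p = 0.0144). Ifit3 and Ifit1 had the largest changes, 0.84 (SE 0.19, adjusted p = 0.0216) and 0.73 (SE 0.20, adjusted p = 0.0458). Ddx58 (0.18, adjusted p = 0.0216), Ifit2 (0.26, adjusted p = 0.027), Ifi27l2a (0.29, adjusted p = 0.0279), Gbp10 (0.53, adjusted p = 0.0307), Psmb9 (0.29, adjusted p = 0.031), Bst2 (0.27, adjusted p = 0.0314) and Irgm1 (0.29, adjusted p = 0.0315) also rose. So did Stat2 (0.15, adjusted p = 0.0336), Dhx58 (0.33, adjusted p = 0.036), Parp14 (0.20, adjusted p = 0.036), Oasl2 (0.47, adjusted p = 0.0367), Gbp2 (0.35, adjusted p = 0.0421), Irf9 (0.16, adjusted p = 0.0433) and Gbp11 (0.53, adjusted p = 0.0457). Both Isg15 (0.30, adjusted p = 0.118) and Usp18 (0.31, adjusted p = 0.0958) missed the threshold.

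Leaving out 1 library at a time gave 12 to 27 calls. Ifih1, Gbp3, Parp9, Rtp4, Lgals3bp, Gbp6, Ifi44, Tap1, Zbp1, Ifit3 and Ddx58 passed in all 24 such fits. The count was 12 without day noise ADX b or night noise ADX b, 13 without day noise sham-operated a, night noise sham-operated b or day sham exposure ADX b, and 14 without night sham exposure sham-operated c. It was 15 without day sham exposure sham-operated c or night sham exposure sham-operated b, and 16 without day noise ADX c, night noise ADX c or day sham exposure sham-operated b. It was also 16 without the 3 libraries that held pituitary or cerebellar transcripts. DESeq2 called 29 members and voom 27, and their shares of all genes are not given here. Of the lymphoid markers Cd79a, Cd79b and Vpreb1 were higher in the average (0.36, 0.39 and 0.50) and Cd3e lower (-0.99).

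In the daytime pair without noise, 0 members passed in edgeR, DESeq2 or voom, where 0.0422% of all genes passed in edgeR. At an unadjusted p under 0.05, 8 members were higher in day sham exposure ADX, against 5.88% of all genes, and in 13 of 47 the 3 ADX libraries lay above all sham-operated ones, against 10.1% of all genes. The median change was 0.21. Ifit3 had 20.5, 31.3 and 20.1 CPM in day sham exposure ADX and 12.8, 13.2 and 12.3 CPM in day sham exposure sham-operated libraries, without overlap (0.91, SE 0.39, adjusted p = 0.384). Gbp11 had 4.15, 5.18 and 2.89 CPM in ADX and 3.15, 1.94 and 1.91 CPM in sham-operated libraries, with overlap (0.81, SE 0.28, adjusted p = 0.262). Summed lymphoid markers were 524 to 647 CPM in these ADX libraries and 321 to 464 CPM in the sham-operated ones.

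After night noise, 0 members differed between ADX and sham-operated cochleae in edgeR, DESeq2 or voom, and 0% of all genes did in edgeR. At an unadjusted p under 0.05, 11 members were higher in ADX, against 3.74% of all genes, and 7 showed no overlap, against 4.76% of all genes. The median change was 0.20. Gbp6 had 10.9, 14.4 and 15.3 CPM in night noise ADX and 6.68, 6.32 and 10.9 CPM in night noise sham-operated libraries (0.76, SE 0.21, adjusted p = 0.352), with ADX a and sham-operated c about equal. Ifit3 had 23.2, 24.7 and 29.6 CPM in ADX and 10.3, 12.3 and 25.3 CPM in sham-operated libraries, where library c lay inside the ADX range (0.70, SE 0.38, adjusted p = 0.634).

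After day noise, 0 members differed between the libraries labelled ADX and the sham-operated ones in edgeR, DESeq2 or voom, and 0% of all genes did in edgeR. At an unadjusted p under 0.05, 4 members were higher in ADX, against 5.58% of all genes, and 3 showed no overlap, against 5.9% of all genes. The median change was 0.17. Without day noise ADX a, 7 members passed, and the share of all genes in that fit is not given here. Iigp1, an IRG protein, had 6.97, 22.97 and 19.9 CPM in the libraries labelled day noise ADX a, b and c and 8.56, 14.4 and 8.44 CPM in day noise sham-operated libraries (0.68, SE 0.35, adjusted p = 0.44). Ifit1 had 13.3, 27.0 and 11.5 CPM in ADX and 10.9, 11.3 and 12.6 CPM in sham-operated libraries (0.59, SE 0.39, adjusted p = 0.534). Both genes overlapped, with 1 ADX library low for Iigp1 and 1 high for Ifit1.

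Whether adrenalectomy acted differently by time or noise was tested as an interaction. None of the 4 interactions called a member in edgeR or DESeq2, and voom called 1, in that of time with surgery. Time with surgery, without noise, gave 13 members with an unadjusted p under 0.05, all higher, against 6.27% of all genes in either direction, and 0.00602% of all genes passed after adjustment. All 47 estimates were positive (median 0.34), with Oasl2 at 1.03 and Gbp10 at 0.98. The share of all genes with a positive estimate is not given here. Noise with surgery at night gave 15 with an unadjusted p under 0.05, all lower, against 6.36% of all genes, and 0% of all genes passed. Its median was -0.33, with Mx2 at -1.003 and Ifi44 at -0.96. This interaction and that of time with surgery share the libraries of the night sham exposure pair, entered with opposite signs. Their patterns are therefore not separate results. Noise with surgery by day gave 2 members, both lower, against 16.4% of all genes with 0% past adjustment. Gbp11 stood at -1.26 and Ifit2 at -0.60. Noise with time in sham-operated mice gave 1, higher, against 7.3% of all genes with 0% past adjustment, with Iigp1 at 0.67 and Ifit1 at 0.55. A difference in the effect of adrenalectomy between pairs was therefore not shown for single genes by edgeR or DESeq2, nor was its absence.

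Noise itself called 1 member in its 4 comparisons of a pair of groups. Gbp11 was lower in the libraries labelled day noise ADX, with 1.67, 2.02 and 1.17 CPM, than in day sham exposure ADX libraries, with 4.15, 5.18 and 2.89 CPM. The groups did not overlap, and the log2 change was -1.31 (SE 0.28, adjusted p = 0.012). In that comparison 4.02% of all genes passed, 2 members were higher and 3 lower at an unadjusted p under 0.05, against 23.5% of all genes in either direction, and the median of the members was -0.003. Gbp11 no longer passed when day noise ADX c or day sham exposure ADX b was left out. With day noise ADX a left out, 6 members passed, and the share of all genes in that fit is not given here. Ifit3 had 10.3, 26.6 and 10.2 CPM in the noise libraries and 20.5, 31.3 and 20.1 CPM in the sham exposure libraries, with overlap (-0.59, SE 0.38, adjusted p = 0.351). Of 8 macrophage markers 3 were higher in this comparison, with summed levels of 639 to 825 CPM in the noise libraries and 567 to 588 CPM in the sham exposure libraries.

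After night noise in sham-operated mice, 0 members passed in edgeR, DESeq2 or voom, and 0.717% of all genes passed in edgeR. Although 45 of 47 changes were positive with a median of 0.18, only 2 members had an unadjusted p under 0.05, both higher, against 4.32% of all genes. The share of all genes with a positive change is not given here. The night sham exposure sham-operated baseline had the lowest mean set median of the 8 groups (-0.27). Oas2 had 10.1, 12.6 and 15.5 CPM in night noise sham-operated and 9.50, 7.84 and 9.15 CPM in night sham exposure sham-operated libraries, without overlap (0.53, SE 0.24, adjusted p = 0.553). Mx2 had 2.52, 2.57 and 5.30 CPM with noise and 2.46, 2.28 and 2.56 CPM without, so that 1 noise library carried the difference (0.51, SE 0.26, adjusted p = 0.621). After day noise in sham-operated mice the count was also 0 in the 3 tools, with 0.247% of all genes called in edgeR and 2 members higher at an unadjusted p under 0.05, against 5.09% of all genes. Zbp1 had 2.84, 6.19 and 3.25 CPM in day noise sham-operated and 3.63, 2.03 and 2.04 CPM in day sham exposure sham-operated libraries, with overlap (0.67, SE 0.29, adjusted p = 0.517). Oasl1 differed by 0.53 (SE 0.31, adjusted p = 0.695).

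After night noise in ADX mice, 0 members passed in edgeR, DESeq2 or voom, with 0.5% of all genes called in edgeR. Of the members 44 were lower, with a median of -0.20, and 7 were lower at an unadjusted p under 0.05, against 5.18% of all genes. With 1 library left out the median ran from -0.265 to -0.048. The share of all genes with a negative change is not given here. The night sham exposure ADX baseline had the highest mean set median of the 8 groups (0.25). Usp18 had 11.9, 9.29 and 10.2 CPM in night noise ADX and 12.1, 22.7 and 12.5 CPM in night sham exposure ADX libraries, without overlap (-0.58, SE 0.20, adjusted p = 0.253). Mx2 had 3.14, 3.59 and 3.63 CPM with noise and 4.56, 6.79 and 3.27 CPM without, with overlap (-0.49, SE 0.25, adjusted p = 0.525). Averaged over the 4 pairs, noise called 0 members in edgeR, DESeq2 or voom, against 4.81% of all genes in edgeR, with 2 members higher and 2 lower at an unadjusted p under 0.05, against 18.7% of all genes in either direction. The largest average changes were 0.31 (Zbp1) and -0.27 (Gbp11), and without day noise ADX a 1 member passed.

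Time of day called 1 member, in the average of its 4 pairs. Tap1 differed by -0.21 on the log2 scale (adjusted p = 0.04), lower at night, where 6.01% of all genes passed. That call was lost in 18 of the 24 fits without 1 library, while 3 members passed without day noise ADX a. The fit with the libraries that held pituitary or cerebellar transcripts left out called 0 members. Ifit3 and Ifit1 had the largest average differences, 0.35 and 0.26, and did not pass.

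Without noise, the median difference of night from day was negative in sham-operated mice and positive in ADX mice. The night libraries are those of the night sham exposure comparison of the surgeries, so these medians are not separate from it. In sham-operated mice it was -0.16 (-0.23 to -0.11 with 1 library left out). There 5 members were lower at an unadjusted p under 0.05, against 4.6% of all genes. After adjustment 0 members passed in edgeR or DESeq2 and 1 in voom, and 0.265% of all genes passed in edgeR. Iigp1 had 8.09, 6.10 and 7.93 CPM in night sham exposure sham-operated and 13.3, 12.2 and 11.5 CPM in day sham exposure sham-operated libraries, without overlap (-0.74, SE 0.36, adjusted p = 0.461). Gbp11 had 1.02, 1.24 and 2.00 CPM at night and 3.15, 1.94 and 1.91 CPM by day (-0.71, SE 0.30, adjusted p = 0.356). The night values of Gbp11 overlapped those by day in 1 library. In ADX mice the median was 0.16 (0.041 to 0.24 with 1 library left out). There 5 members were higher at an unadjusted p under 0.05, against 3.27% of all genes. After adjustment 0 members passed in edgeR, DESeq2 or voom, and 0.0181% of all genes passed in edgeR. Ifit1 had 17.7, 51.6 and 16.6 CPM in night sham exposure ADX and 15.2, 21.4 and 15.6 CPM in day sham exposure ADX libraries, with overlap (0.71, SE 0.38, adjusted p = 0.832). Oasl2 had 29.3, 69.8 and 36.1 CPM at night and 25.1, 34.1 and 28.3 CPM by day, with overlap (0.62, SE 0.24, adjusted p = 0.762).

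After noise, night against day called 0 members in edgeR in either surgery group. In sham-operated mice, 1 member was higher and 2 lower at an unadjusted p under 0.05, against 15% of all genes in either direction. After adjustment 1.12% of all genes passed, and DESeq2 and voom called 0 members. Zbp1 and Ifit3 differed most, by -0.48 (SE 0.29, adjusted p = 0.449) and 0.41 (SE 0.39, adjusted p = 0.685). In ADX mice 3 members were higher and 3 lower at an unadjusted p under 0.05, against 18.3% of all genes in either direction, and 0.62% of all genes passed after adjustment. DESeq2 called 3 there, 1 higher and 2 lower, voom called 0, and 5 passed in edgeR without day noise ADX a. The shares of all genes under these alternatives are not given here. Gbp11 had 2.12, 3.05 and 3.43 CPM in night noise ADX and 1.67, 2.02 and 1.17 CPM in the libraries labelled day noise ADX, without overlap (0.81, SE 0.29, adjusted p = 0.158). Ifit3 differed by 0.70 (SE 0.38, adjusted p = 0.327).

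The order of the 8 groups differed between members. Stat2 averaged 78.8 ± 7.49 CPM in night sham exposure ADX, 72.1 ± 3.52 CPM in day sham exposure ADX and 60.8 ± 2.86 CPM in night sham exposure sham-operated libraries, its highest 2 groups and its lowest (SD, n = 3 each). Isg15 was highest in the libraries labelled day noise ADX, at 19.4 ± 4.09 CPM, followed by night sham exposure ADX at 18.8 ± 5.10 CPM, and these did not differ beyond their spread. Irf1 ran only from 45.4 ± 1.55 CPM in night sham exposure sham-operated to 58.5 ± 13.1 CPM in the libraries labelled day noise ADX. Gbp2 had 24.1 ± 2.40 CPM in night sham exposure ADX, 23.6 ± 2.02 CPM in day sham exposure ADX and 15.2 ± 2.95 CPM in night sham exposure sham-operated libraries. Gbp11 was highest in day sham exposure ADX, at 4.07 ± 1.14 CPM, and lowest in night sham exposure sham-operated, at 1.42 ± 0.515 CPM. The night sham exposure sham-operated group was the lowest of the 8 for each of these 5 genes and for Irf7, Ifit1 and Usp18. Over the 24 libraries the highest value was 5.64 times the lowest for Ifit3, 5.24 for Ifit1 and 5.07 for Gbp11, and 1.46 for Irf9.

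**Figure D5:**
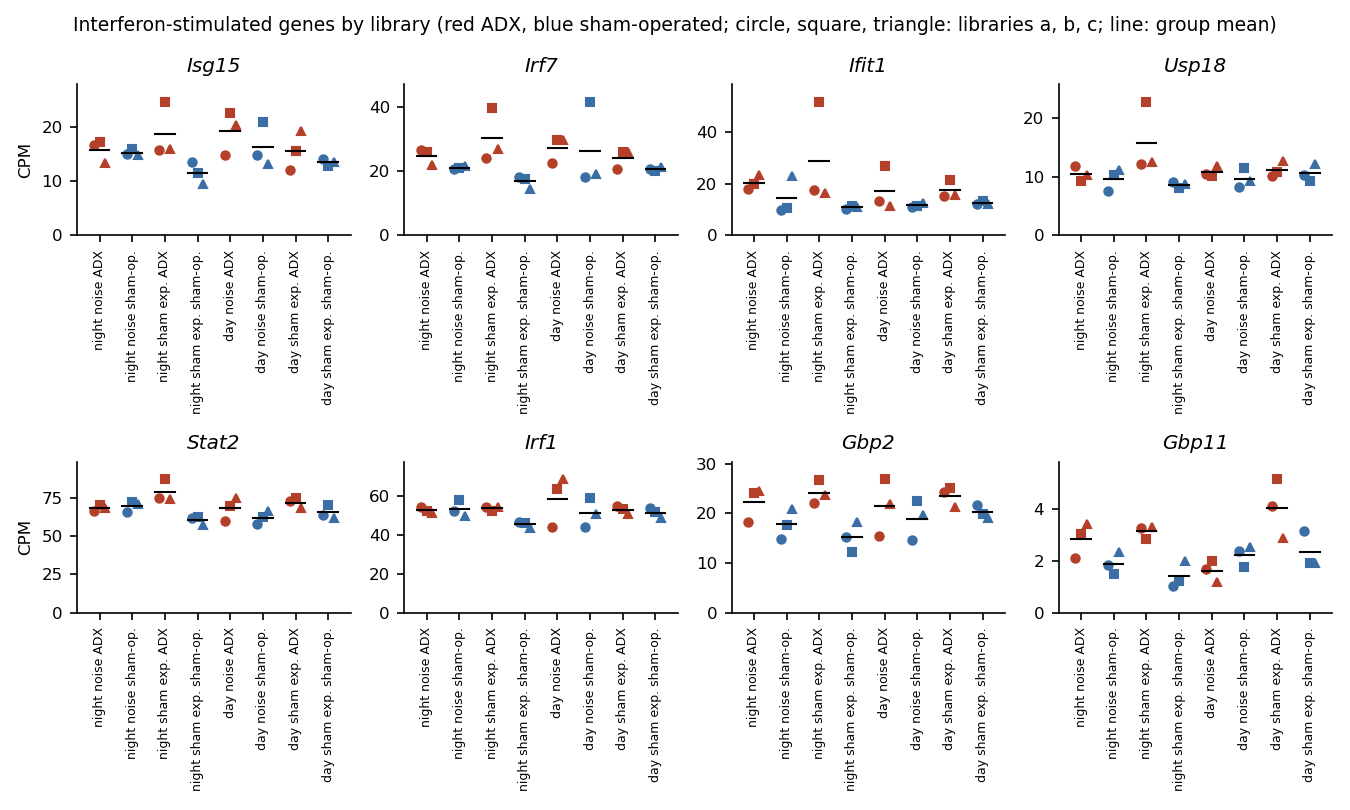
CPM of Isg15, Irf7, Ifit1, Usp18, Stat2, Irf1, Gbp2 and Gbp11 in each library by group, ADX in red and sham-operated in blue, with group means as lines. Night sham exposure sham-operated libraries average lowest in all 8 genes, and Ifit1 reaches 51.6 CPM in night sham exposure ADX b.

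Other genes of the pathway were read from a list of 84, of which 82 had an entry and 73 were tested. The interferons themselves were almost absent: of 9 genes 0 passed the filter. Ifna1, Ifna2, Ifna4 and Ifnl2 had 0 counts, Ifnb1 had 5 and Ifng 92 counts over all 24 libraries. Whether they were induced could not be seen at this depth. Of 6 receptor chains 0 were called between ADX and sham-operated groups, in the night pair without noise or in the average, with 0 higher at an unadjusted p under 0.05 in either and 1 lower in the average.

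In night sham exposure ADX, 7 of these 73 were higher and 0 lower than in night sham exposure sham-operated libraries. Of all genes tested 1.11% were called higher there. Gbp9 averaged 25.4 ± 1.83 CPM in ADX and 14.8 ± 0.922 CPM in sham-operated libraries (0.78, adjusted p = 0.0158). Trim25, the ligase that activates RIG-I, averaged 129.5 ± 7.71 and 96.3 ± 9.37 CPM (0.43, adjusted p = 0.0118). The others were the nuclear body protein Sp100 (0.42), Ifi203 (0.47), the kinase Eif2ak2 (PKR, 0.39), the immunoproteasome subunit Psmb10 (0.37) and Tapbp (tapasin, 0.26). In the average of 4 pairs 13 were higher and 0 lower, against 1.68% of all genes called higher. Among them were these 7 and Gbp4 (0.47), Gbp5 (0.39), Phf11d (0.50), Ddx60 (0.38) and Psme2 (0.17). Noise moved Socs3, which inhibits JAK kinases. It averaged 37.8 ± 5.88 CPM in night noise sham-operated and 14.5 ± 0.923 CPM in night sham exposure sham-operated libraries (1.39, adjusted p = 2.92e-05). In day noise sham-operated libraries it averaged 22.7 ± 5.61 CPM, against 14.5 ± 0.849 CPM in day sham exposure sham-operated libraries, and did not pass (0.64, adjusted p = 0.131). Socs3 passed in both ADX pairs. It averaged 33.6 CPM in the libraries labelled day noise ADX and 13.8 CPM in day sham exposure ADX (1.28, adjusted p = 8.15e-05). The night noise ADX and night sham exposure ADX means were 29.2 and 13.7 CPM (1.09, adjusted p = 0.000693). It was higher by 1.10 in the noise average (adjusted p = 5.49e-09). Stat3 rose by 0.16 in the noise average (adjusted p = 0.000838).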

How the data were processed

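Raw counts of reads per gene symbol in 24 libraries were used as deposited by the authors. Per the labels' protocols, libraries were made with a stranded mRNA kit from 300 ng of RNA, pooled by 6 and read for 50 bases. Per the submitters' processing notes, TopHat2 2.0.11, HTSeq 0.6p1 and the build mm10 were used; the annotation and strand setting are not given in the sources used here. A spreadsheet had turned 27 row names into dates, none of them a member.

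From these counts, edgeR 4.0.16 in R 4.3.3 kept 16607 genes (filterByExpr, 8 groups) and applied TMM factors (0.974 to 1.02). It fitted 1 coefficient per group to all 24 libraries by robust quasi-likelihood. The 12 comparisons of a pair of groups, 3 averages and 4 interactions each had a two-sided quasi-likelihood test, with Benjamini-Hochberg adjustment over the 16607 genes (threshold 0.05). The common biological coefficient of variation was 0.0991. CPM are TMM-scaled, and log2 CPM per library used a prior count of 2. No library repeated another within a group (chi-square per gene 6.10 to 41.4).

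Alternatives were RLE factors, DESeq2 1.42.0, limma 3.58.1 voom with library weights, no filter, a replicate block, a fit of the groups compared alone, and fits without single libraries or without the 3 libraries rich in pituitary or cerebellar transcripts. Averages without the day noise or the night sham exposure pair were added after seeing the data. The procedure was tested on simulated counts.

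The members, the pathway and marker lists and the tests were chosen with earlier results of these data known. Named with statistics were up to 25 called members per comparison, the 2 members with the largest changes in each, and 8 fixed genes (Isg15, Irf7, Ifit1, Usp18, Stat2, Irf1, Gbp2 and Gbp11). Other members named were chosen after their values were seen. Positions are from GENCODE vM21 (GRCm38), and promoters from RefSeq (GRCm38.p6).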

Additional observations from a re-analysis of the deposited data

How the results depend on the processing

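Of 320 recounts of the 19 results that count called members, 269 stayed within 1.5 times the reported count, and of 1064 refitted values of single genes 743 stayed on the same side of the threshold, 321 no longer passed and 0 changed sign. The night sham exposure comparison of ADX with sham-operated groups, at 17 members, gave 30 with DESeq2, 32 with voom, 15 with the replicate block and 0 to 14 with 1 library left out. The ADX average, at 25, gave 16 without the 3 libraries that held pituitary or cerebellar transcripts, 0 without the night sham exposure pair, 24 with the replicate block and 12 to 27 with 1 library left out. With 1 library left out, the counts were 0 to 7 for ADX after day noise, 0 to 6 for noise by day in ADX mice, 0 to 5 for night against day after noise in ADX mice, 0 to 3 for the time average and 0 to 1 for the noise average. The time average, at 1, gave 0 with the replicate block and 0 without the 3 libraries. ADX by day without noise gave 1 when the 2 groups were fitted alone. Night against day after noise in ADX mice gave 3 with DESeq2. Voom gave 1 for night against day without noise in sham-operated mice and 1 for the interaction of time with surgery. The block joins libraries of the same letter. Over the design the letters did not pair the libraries: 84 correlations of deviations between groups ran from -0.419 to 0.566 (median 0.022), with 25 over 0.1. Of 28 pairs of groups, 1 had all 3 letters over 0.1, day noise with day sham exposure in sham-operated mice (0.271, 0.239 and 0.309), and there 0 members were called with the replicate block and without it. The causes of these shifts were not tested. The share of all genes called under each alternative is not given here, so a higher count of members may come with more calls among all genes. At this depth the lowest count of a member in a library was 27, and the interferon genes were too rare to compare.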
